A study of Mus musculus with 16 samples.

Results

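The comparison described here is the interaction of Vhl and Pbrm1 deletion in mouse kidney cortex. It is the change that went with Pbrm1 deletion in Vhl-deleted kidneys minus that in kidneys with intact Vhl. All 16 arrays of the series entered it, 4 in each of 4 groups. Double mutants carried floxed alleles of both genes and a Ksp-Cre transgene (VhlF/FPbrm1F/FKsp-Cre). Vhl mutants (VhlF/FKsp-Cre) and Pbrm1 mutants (Pbrm1F/FKsp-Cre) carried 1 pair of floxed alleles and the same transgene. Wild-type mice were C57BL/6, and for them no Cre or floxed allele is given. The 3 mutant groups share a mixed background of C57BL/6, BALB/c and 129. All mice were 3 months old and on a normal diet. Ksp-Cre is driven by the promoter of Cdh16, a cadherin of tubule epithelium, so other cells of the cortex keep both genes. Of 22180 annotated genes tested, 583 departed from additivity at an adjusted p under 0.05, which is 2.63%.

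Vhl encodes the part of a ubiquitin ligase that recognises hydroxylated hypoxia-inducible factors (HIF) and marks them for destruction. Without it these transcription factors accumulate and drive genes of glycolysis, angiogenesis and oxygen sensing even when oxygen is present. Pbrm1 encodes BAF180, a bromodomain protein of the PBAF chromatin remodeler. Both genes are often inactivated in clear cell renal cell carcinoma, and the stated purpose of the series was to find early transcriptional events in its formation.

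All values are log2 expression levels after robust multi-array averaging, so 1 unit is 2-fold. Additivity on this scale means that the double mutant differs from wild type by the sum of the changes in the single mutants, which is multiplication on the linear scale. The departure is the observed minus the additive double mutant change. A gene above additivity has a positive departure, and its double mutant level is higher than the sum predicts. A gene below additivity has a negative departure. The wild-type group enters the sum once, with a plus sign. A shift that all 3 mutant groups share against wild type therefore appears as a departure of equal size and opposite sign, and for such genes genotype, Cre and strain background cannot be told apart. The double mutants and the single mutants carry the same background label, and their comparison does not involve the wild-type strain. Each single mutant differs from wild type in Cre and strain label as well as in the deletion. Changes given for a deletion with the other gene intact are such comparisons, and these parts cannot be told apart in them.

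Whether 4 animals stand behind each group is not stated. The descriptions give a number to each array, 2 numbers per group, and p-values measure the spread between arrays, which may be partly technical. In each group replicates 1 and 2 resembled each other, as did 3 and 4. Between those pairs 40 genes differed by more than 1 in double mutants, 21 in Vhl mutants, 14 in Pbrm1 mutants, against 8 in wild type. No other split of a group separated more than 1 gene. Double mutant replicate 3 went with replicate 4, although its description gives it the number of replicates 1 and 2. Array medians lay between 5.18 and 5.27, and a level below 3.68, the typical lower quartile, may be background. Y-linked Uty lay between 7.19 and 7.59 on all arrays and Xist between 2.92 and 3.33. Cdh16 was present on every array, at 10.44 to 10.49 in double mutants, 10.50 to 10.64 in Vhl mutants, 10.70 to 10.77 in Pbrm1 mutants, against 10.73 to 10.85 in wild type. The probe set of Vhl read 6.08 to 6.51 in double mutants, 6.25 to 6.30 in Vhl mutants, 6.20 to 6.30 in Pbrm1 mutants, against 6.23 to 6.55 in wild type. That of Pbrm1 read 8.02 to 8.19 in double mutants, 8.05 to 8.33 in Vhl mutants, 8.15 to 8.24 in Pbrm1 mutants, against 8.14 to 8.26 in wild type. Where in these genes the probe sets lie was not examined, so the values check nothing about the deletions. The departure was 0.01 ± 0.14 for Vhl (SE, adjusted p = 0.986) and -0.0027 ± 0.098 for Pbrm1 (adjusted p = 0.994).

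More genes lay above additivity than below. There were 394 above (1.78% of genes tested) and 189 below (0.852%), with a median size of departure of 0.62 and 0.66. A departure of at least 2-fold was reached by 53 and 42 of them. The median departure of all genes was -0.002, and its median standard error was 0.163. The excess above additivity depended on scaling: 67.6% of called genes lay above on the deposited values, 80.1% (566 of 707) with each array centred on its median and 53.1% (294 of 554) after quantile normalization. Averaging the arrays of each pair, which leaves 2 values per group, kept 51 of the 583 calls, 31 above and 20 below, and 0 of the 583 genes changed sign. On the linear scale the sign held for 392 of 394 genes above and for 189 of 189 below. The exceptions were Cpn1 and Cyp4a12a, of which Cpn1 was chosen for mention after its values were seen.

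**Figure D1:**
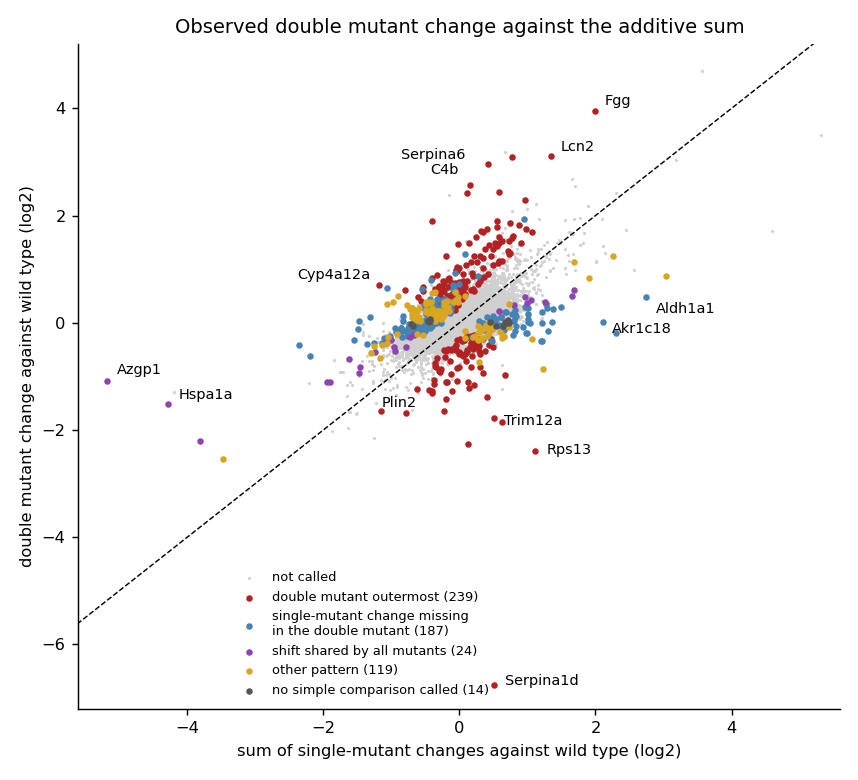
Difference of group means between double mutants and wild type (vertical axis, log2) against the sum of the same differences for the Vhl and Pbrm1 mutants (horizontal axis, log2), 1 point for each of 22180 genes. The dashed line marks additivity, grey points were not called, and colours give the kinds of departure, with 239 genes where the double mutant was outermost and 187 where a single-mutant change was missing from it.

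The called genes arose in several ways, sorted here by the simple comparisons of the same fit. These comparisons called 2706 genes in double mutants against wild type (12.2%), 1408 in double against Vhl mutants (6.35%), 2260 in double against Pbrm1 mutants (10.2%), 851 in Vhl mutants against wild type (3.84%) and 895 in Pbrm1 mutants against wild type (4.04%). In the most frequent kind the double mutant lay outermost, called against wild type and against both single mutants in the direction of the departure: 155 genes above and 84 below. In the next kind a single mutant was called against wild type in the opposite direction and the double mutant was not: 130 above and 57 below. All 3 mutant groups moved together against wild type in 16 genes above and 8 below. A further 87 and 32 genes had other patterns of calls, and 6 and 8 had no simple comparison called. The kinds differed in how many interaction calls stayed with the arrays averaged per pair. These were 26 and 11 with the double mutant outermost, and 4 and 7 with a single-mutant change missing. Shifts shared by all mutants kept 1 and 1, other patterns 0 and 1, and the last kind 0 and 0. These counts describe how the calls fall and were not tested.

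**Figure D2:**
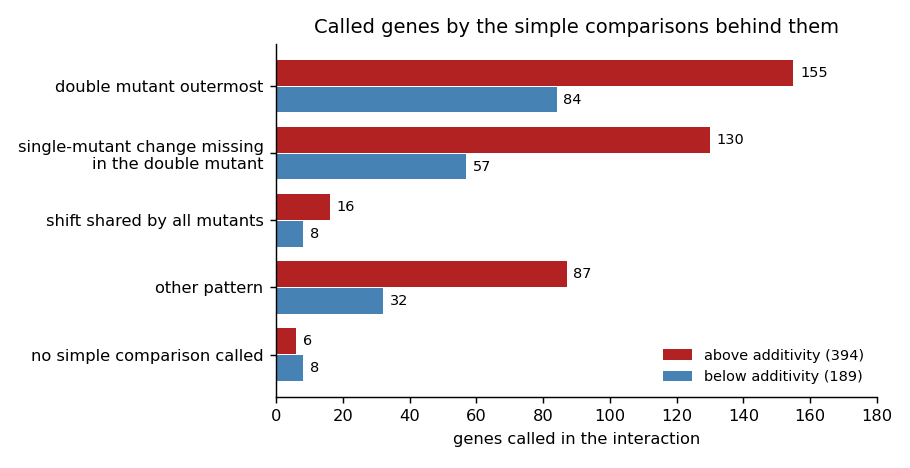
Number of genes called in the interaction (horizontal axis) for each kind of departure, above additivity in red and below it in blue. The double mutant was outermost in 155 and 84 genes, and a single-mutant change was missing from it in 130 and 57.

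Among the genes with the double mutant outermost and high, neither single mutant was called against wild type in 108 of 155. Another 32 rose in Vhl mutants alone and went further in double mutants, 5 rose in Pbrm1 mutants alone, and 10 had other combinations of single-mutant calls. All 4 double mutant arrays stood above the 12 others in 144 of the 155, against 2.46% of all genes tested. The sorting required the double mutant to be called higher than every other group, so this separation is a description of these genes.

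Acute phase protein genes were among them. Fgg and Fga encode the gamma and alpha chains of fibrinogen, the clotting protein that the liver makes in inflammation and that injured tubules can also express. Fgg read 9.70, 9.57, 8.78 and 9.39 in double mutants, 6.52, 7.18, 6.95 and 6.42 in Vhl mutants, 6.11, 6.06, 5.96 and 6.01 in Pbrm1 mutants, against 4.95, 5.29, 5.70 and 5.67 in wild type. The double mutant arrays lay above all others, where the additive level would have been 7.4. The departure of Fgg was 1.96 ± 0.28 (SE, 3.9-fold, adjusted p = 0.000558). Fga read 7.88, 7.95, 7.37 and 7.79 in double mutants against at most 6.46 in any other group, with an additive level of 6.43 and a departure of 1.32 ± 0.18 (adjusted p = 0.000271). Fgb, the remaining fibrinogen chain, was not called (0.97 ± 0.43, adjusted p = 0.273) and was chosen for mention after its values were seen. Lcn2, a siderophore-binding lipocalin and marker of tubule injury, read 8.65, 8.48, 8.54 and 9.17 in double mutants, 7.79, 7.30, 7.31 and 6.95 in Vhl mutants, 5.18, 5.43, 4.98 and 5.29 in Pbrm1 mutants, against 5.78, 5.48, 5.36 and 5.81 in wild type. Its groups separated between Vhl mutants and wild type too. The departure of Lcn2 was 1.78 ± 0.24 (adjusted p = 0.000277). Pbrm1 deletion went with a change of 1.39 in Lcn2 when Vhl was deleted (adjusted p = 2.16e-05) and of -0.38 when it was not (adjusted p = 0.261).

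Osmr, the receptor subunit for oncostatin M upstream of STAT3, had a departure of 0.88 ± 0.15 (adjusted p = 0.00204, and 0.0614 with the arrays averaged per pair). Of 28 STAT3 targets and acute phase genes tested, 7 lay above additivity (25%, beside 1.78% of all genes) and 0 below. The median departure was 0.26 beside -0.002 for all genes. The count was 3 above with the arrays averaged per pair. The tubular injury list had 8 of 24 genes above (33.3%) and 0 below, with a median of 0.57 and 23 of 24 departures positive. Its called members include Clu, the secreted chaperone clusterin (departure 0.95 ± 0.15, adjusted p = 0.00182), and Vcam1, the leukocyte adhesion molecule (0.92 ± 0.19, adjusted p = 0.0101). S100a6, a calcium-binding protein, had 0.97 ± 0.24 (adjusted p = 0.0342), a call that ended when any of 5 arrays was left out singly. These arrays were double mutant replicates 1 and 2, Pbrm1 mutant replicate 4 and wild-type replicates 1 and 2. With the arrays averaged per pair Clu was not called (adjusted p = 0.088), and the injury count was 2 above. Without double mutant replicates 1 and 2 it was 5, without their replicates 3 and 4 it was 12, and without wild-type replicates 1 and 2 it was 4. In whole cortex, more cells of a type and more RNA per cell cannot be told apart. Summarised as the median difference of 23 macrophage genes from the wild-type mean, the macrophage markers stood at 0.53 to 0.84 on double mutant arrays, 0.54 to 0.85 on Vhl mutant arrays, -0.12 to -0.01 on Pbrm1 mutant arrays and -0.06 to 0.11 on wild-type arrays. Their part in these departures was not tested.

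The promoters of Fgg and Fga are shown because these neighbouring genes of chromosome 3 moved together and because acute phase genes are classical STAT3 targets. Each is the 250 bases before the RefSeq start (GRCm38.p6, plus strand), Fgg at chr3:83007474-83007723 and Fga at chr3:83025903-83026152, 5′ to 3′. Capitals mark matches to the STAT motif TTCNNNGAA on either strand.
Fgg: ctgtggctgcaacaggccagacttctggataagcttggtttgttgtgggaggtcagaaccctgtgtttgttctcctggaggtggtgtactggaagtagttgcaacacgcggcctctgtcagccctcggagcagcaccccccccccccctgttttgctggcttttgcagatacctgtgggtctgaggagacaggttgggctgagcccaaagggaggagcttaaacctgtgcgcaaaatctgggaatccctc
Fga: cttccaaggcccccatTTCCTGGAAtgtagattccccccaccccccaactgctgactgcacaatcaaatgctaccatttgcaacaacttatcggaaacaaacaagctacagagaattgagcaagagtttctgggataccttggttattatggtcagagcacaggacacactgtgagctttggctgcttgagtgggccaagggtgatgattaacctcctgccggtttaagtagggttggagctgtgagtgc
Fga held 1 match, beginning 234 bases before the start, and Fgg and Lcn2 held 0 in this window. Over the 250 bases before and 50 after each start, the motif was in 11 of 115 genes with the double mutant outermost and high (9.57%), beside 1544 of 16918 tested genes with a promoter in the table (9.13%). The hypoxia response element core ACGTG was in 19 of those 115 (16.5%) beside 23.8% of all, and the AP-1 motif TGANTCA in 9 (7.83%) beside 8.39%. For all genes above additivity the shares were 9.7%, 24.4% and 8.03%, and for all below 6.02%, 16.5% and 6.02%.

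Of 20 complement genes 6 lay above additivity (30%) and 1 below (5%), beside 1.78% and 0.852% of all genes. The median departure was 0.12, and 12 departures were positive. In 4 of the 6 above the double mutant was outermost. The list's median difference between double and Vhl mutants was 0.007. C4b, the fourth component of the classical pathway, read 8.28, 8.15, 7.36 and 7.78 in double mutants. It read 5.10 to 5.61 in Vhl mutants, 5.15 to 5.87 in Pbrm1 mutants, against 4.81 to 5.59 in wild type. Neither single mutant was called, and the departure was 2.42 ± 0.29 (5.37-fold, adjusted p = 7.52e-05). Hc, the fifth component, read 5.46 to 6.95 in double mutants against at most 3.94 elsewhere, where it may be at background (departure 2.34 ± 0.34, adjusted p = 0.000604). Cfi, the protease that inactivates C3b and C4b, fell in Pbrm1 mutants by 1.11 (adjusted p = 0.00285) and rose in double mutants by 0.71 (adjusted p = 0.028). Its departure was 1.89 ± 0.29 (adjusted p = 0.00108), and its replicate 3 of the double mutants, at 5.51, lay within the range of other groups. The 1 list gene below is Cd59a, an inhibitor of the membrane attack complex, at 7.31 to 7.64 in double mutants, 8.27 to 8.54 in Vhl mutants, 8.12 to 8.39 in Pbrm1 mutants, against 8.47 to 8.57 in wild type (departure -0.69 ± 0.12, adjusted p = 0.00284). Cd59a is also listed as a candidate for variation between mouse strains, and whether strain background contributes was not tested. Hc is not in the complement list. With the arrays averaged per pair 2 complement genes lay above and 0 below, and Hc was not called (adjusted p = 0.0617).

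Glycolysis and HIF target genes are known to respond to Vhl loss itself. Of 15 glycolysis genes 2 lay above additivity (13.3%, beside 1.78% of all genes) and 0 below, and both encode phosphofructokinase subunits. Pfkp read 9.55, 9.4, 9.59 and 9.63 in double mutants, 9.11, 8.88, 9.04 and 9.02 in Vhl mutants, 7.61, 7.55, 7.54 and 7.58 in Pbrm1 mutants, against 7.73, 7.88, 7.66 and 7.94 in wild type. Most of its change was present in Vhl mutants, and the double mutants stood above them with no overlap. The departure of Pfkp was 0.77 ± 0.10 (adjusted p = 0.000305), and that of Pfkl was 0.56 ± 0.12 (adjusted p = 0.0149). With the arrays averaged per pair Pfkp stayed called (adjusted p = 0.0252) and Pfkl did not (adjusted p = 0.0936). Among 38 HIF targets 4 lay above (10.5%) and 1 below, with a median departure of 0.17 and 33 departures positive. Those above include Edn1, the vasoconstrictor endothelin-1 (1.01 ± 0.25, adjusted p = 0.0337), whose call ended when any of 8 arrays was left out singly. The gene below is Plin2. With the arrays averaged per pair 0 HIF targets lay above and 1 below, and without wild-type replicates 1 and 2 there was 1 of each.

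Thbs1, the matrix glycoprotein thrombospondin-1, read 9.27, 9.12, 8.59 and 9.03 in double mutants, 8.68, 8.42, 8.33 and 8.15 in Vhl mutants, 7.60, 7.91, 7.39 and 7.22 in Pbrm1 mutants, against 8.11, 8.19, 8.09 and 8.26 in wild type. Double and Vhl mutant arrays overlapped. It fell with Pbrm1 deletion alone by 0.63 (adjusted p = 0.016) and rose with it in the Vhl-deleted kidney by 0.61 (adjusted p = 0.0147). The departure was 1.24 ± 0.21 (adjusted p = 0.00245, and 0.0671 with the arrays averaged per pair). Of 31 extracellular matrix genes 4 lay above and 0 below (median 0.29). That count was 0 with the arrays averaged per pair, 2 without double mutant replicates 1 and 2, and 10 without replicates 3 and 4. The median difference of 9 smooth muscle and renin cell genes from the wild-type mean was 0.83 and 0.50 on double mutant replicates 1 and 2, against 0.05 and 0.11 on replicates 3 and 4. Its part was not tested.

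Where the double mutant was outermost and low, neither single mutant was called in 70 of 84 genes. All 4 double mutant arrays lay below the 12 others in 81 of the 84, against 1.59% of all genes. The sorting required the double mutant to be called lower than every other group, so this separation too is only a description. Plin2, the coat protein of lipid droplets and a HIF target in other settings, read 7.06, 7.08, 7.28 and 7.35 in double mutants. It read 8.27, 8.37, 8.45 and 8.20 in Vhl mutants, 8.23, 8.16, 8.25 and 8.19 in Pbrm1 mutants, against 8.36, 8.43, 8.55 and 8.53 in wild type. The double mutant arrays were the lowest by a wide gap, with a departure of -0.86 ± 0.11 (adjusted p = 0.000176). Slc34a3, a sodium-phosphate cotransporter of the proximal tubule, averaged 6.82 ± 0.29 in double mutants, 7.82 ± 0.15 in Vhl mutants, 7.89 ± 0.07 in Pbrm1 mutants, against 8.08 ± 0.07 in wild type (SD, n = 4 each). Its departure was -0.83 ± 0.16 (adjusted p = 0.0064, and 0.149 with the arrays averaged per pair).

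The tubule segment lists are given separately, and each had 0 calls with the arrays averaged per pair. Of 34 proximal tubule genes 6 lay below (17.6%, beside 0.852% of all genes) and 2 above (5.88%, beside 1.78%), with a median departure of -0.17. Besides Slc34a3 these included the amino acid transporter gene Slc6a19, below at -0.54 ± 0.11 (adjusted p = 0.0102), and Napsa, encoding the aspartic protease napsin A, above at 0.46 ± 0.07 (adjusted p = 0.00131). The 6 below became 2 with centred arrays, 1 without wild-type replicates 1 and 2, and 0 with the arrays averaged per pair. The list's median difference was -0.017 between double and Vhl mutants and -0.084 between double mutants and wild type. Of 15 principal cell genes 3 lay below and 0 above (median -0.23), with 0 below when the arrays were averaged per pair and 1 without the 3 arrays of highest adipose markers. Hsd11b2, which inactivates glucocorticoid in aldosterone target cells, read 8.40 to 8.61 in double mutants, 8.75 to 9.14 in Vhl mutants, 9.37 to 9.53 in Pbrm1 mutants, against 9.26 to 9.43 in wild type. It fell in Vhl mutants and further in double mutants, with a departure of -0.59 ± 0.12 (adjusted p = 0.00767). Of 18 thick ascending limb genes 1 lay above and 0 below, with a median of 0.17 and 12 positive departures. The gene is Cldn19, a tight junction claudin (0.85 ± 0.19, adjusted p = 0.0215). The median difference of the thick ascending limb list between double mutants and wild type was -0.176. Of 18 distal convoluted tubule genes 1 lay above and 1 below (median 0.03, 10 positive), the calcium channel gene Trpv5 above and the calcium-binding protein gene S100g below. Both of those calls ended when any of several arrays was left out singly, and with the arrays averaged per pair both lists had 0 calls. Of 20 intercalated cell genes only the ammonia channel gene Rhcg was called, below at -0.50 ± 0.12 (adjusted p = 0.0248), a call that ended without double mutant replicate 4 or Vhl mutant replicate 2. The 30 respiratory chain genes had 2 below and 0 above, Cox5a at -0.37 ± 0.08 (adjusted p = 0.0222) and Cox7a2 at -0.31 ± 0.08 (adjusted p = 0.0344). Neither was called with centred arrays, with the arrays averaged per pair or per description number, without double mutant replicates 3 and 4, or without the 3 arrays of highest adipose markers. After quantile normalization the list had 3 below.

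**Figure D3:**
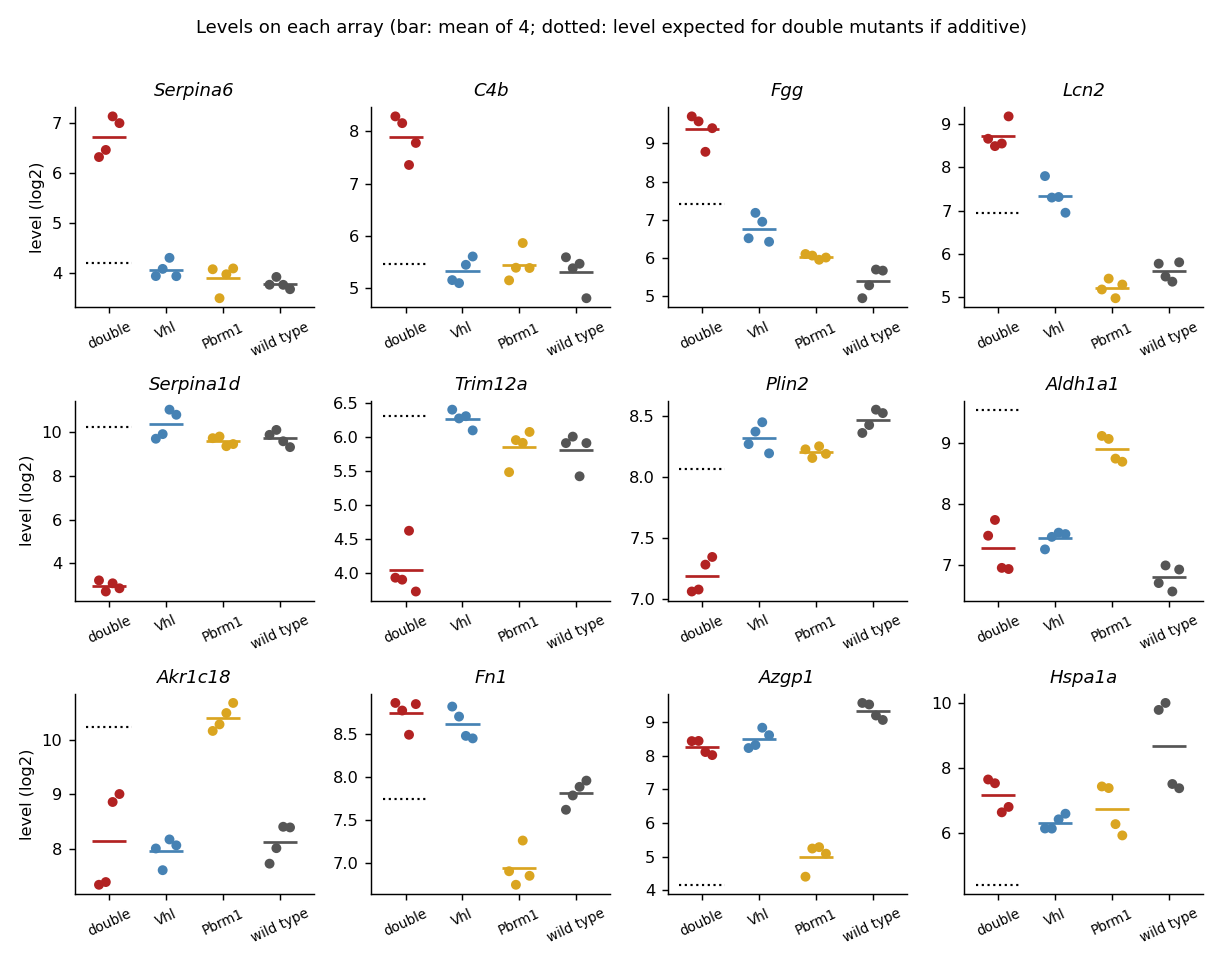
Level (log2) on each of the 16 arrays for 12 genes, in the order double, Vhl and Pbrm1 mutants and wild type, with a bar at the mean of 4 arrays. The dotted line in the double mutant column is the level expected under additivity, which lies below the double mutants for Fgg at 7.4 and Azgp1 at 4.16 and above them for Plin2 at 8.06 and Aldh1a1 at 9.54.

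Several of the largest departures belonged to genes that stand near each other on a chromosome. The stretches were looked for, and their genes named, after the values were seen. Serpina1d, a gene of the alpha-1 antitrypsin protease inhibitor family, read 3.22, 2.71, 3.09 and 2.86 in double mutants, 9.71, 9.92, 11.04 and 10.81 in Vhl mutants, 9.74, 9.81, 9.37 and 9.47 in Pbrm1 mutants, against 9.89, 10.11, 9.59 and 9.33 in wild type. It was near background on the 4 double mutant arrays and among the bright genes on the others, with a departure of -7.27 ± 0.33 (adjusted p = 3.86e-11). Its paralog Serpina1c read 2.94 to 3.14 in double mutants, also near background, and 4.59 to 6.08 elsewhere. The departure of Serpina1c was -2.38 ± 0.41 (adjusted p = 0.00316, and 0.0881 with the arrays averaged per pair). Serpina1 paralogs are near copies of each other, so a probe set may measure more than the gene it is named for. Their neighbours went the other way. Serpina6, corticosteroid-binding globulin, read 6.32, 6.46, 7.14 and 7.0 in double mutants against at most 4.30 elsewhere (departure 2.56 ± 0.25, 5.88-fold, adjusted p = 5.84e-06). Serpina10, protein Z-dependent protease inhibitor, averaged 7.79 ± 0.42 in double mutants, 5.61 ± 0.32 in Vhl mutants, 4.56 ± 0.23 in Pbrm1 mutants, against 4.69 ± 0.09 in wild type (SD, n = 4 each), with a departure of 2.33 ± 0.26 (adjusted p = 3.31e-05). These 4 genes lie within 8 consecutive tested genes of chromosome 12.

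In windows of 100 consecutive tested genes, the 227 genes with the double mutant outermost that could be placed in full windows numbered 1.08 per window on average. They were absent from 82 of 210 windows, and 10 windows held 4 or more. On chromosome 7, 6 such genes lay within 46 tested genes, Ctsc and Sytl2 above additivity and Prcp, Ndufc2, Aqp11 and Myo7a below. Ndufc2, a complex I subunit, averaged 8.82 in double mutants, 9.76 in Vhl mutants, 9.70 in Pbrm1 mutants, against 9.64 in wild type, with a departure of -1.01 (adjusted p = 5.84e-06). Further along that chromosome Rras2, Rps13, Pik3c2a, Nucb2 and Acsm1 lay within 37 tested genes, of which Rras2 was above. Rps13, a ribosomal protein gene, read 2.14 to 2.74 in double mutants and 4.71 to 5.67 elsewhere, with a departure of -3.52 ± 0.20 (adjusted p = 1.71e-09). Its double mutant levels lay below 3.68 and may be background, and its levels elsewhere lay around the array medians of 5.18 to 5.27. What the probe set of Rps13 measures was not examined. On chromosome 4 Ddost, Pla2g5 and Emc1 were above and Otud3 and Arhgef10l below within 34 tested genes. Ddost, a subunit of the oligosaccharyltransferase, had a departure of 1.07 (adjusted p = 2.17e-07). Each of these stretches held genes of both directions, and in the one on chromosome 4 no single mutant was called for any of the 5. Genes whose single-mutant change was missing numbered 0.85 per window, with 7 windows of 4 or more.

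**Figure D4:**
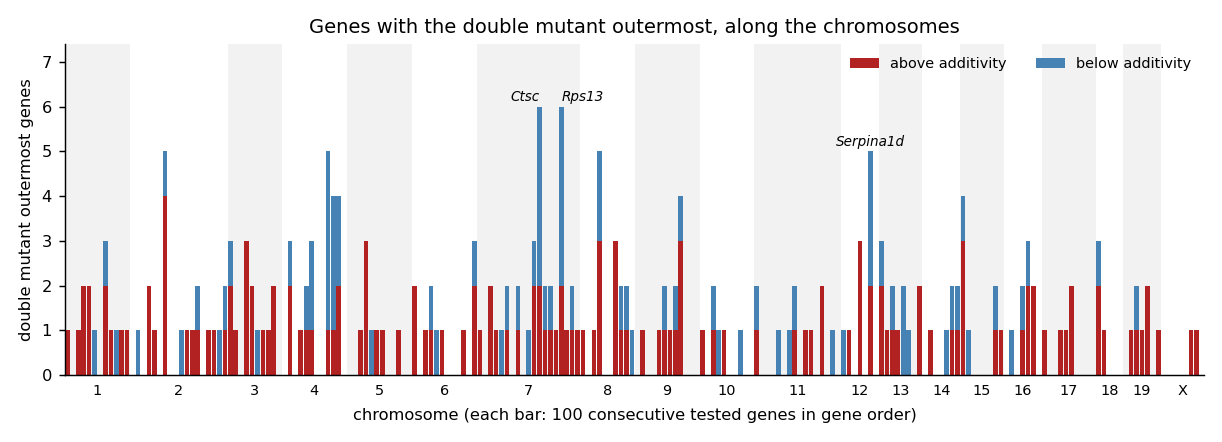
Number of genes with the double mutant outermost (vertical axis) in windows of 100 consecutive tested genes, placed in gene order along the chromosomes (horizontal axis), red above additivity and blue below. The highest windows, with 6 genes each, lie on chromosome 7 and mix both directions, as does the window of 5 around Serpina1d on chromosome 12.

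Other large departures with the double mutant outermost lay outside those stretches. Rps3a1, another ribosomal protein gene, read 9.83 to 10.46 in double mutants and 7.43 to 8.19 elsewhere (departure 1.87 ± 0.20, adjusted p = 1.45e-05). It shares a window of 100 tested genes on chromosome 3 with Fgg and Fga. All 3 had the double mutant outermost and high, beside 1.08 outermost genes per window on average. Trim12a, a TRIM family gene, read 3.92, 3.90, 4.62 and 3.72 in double mutants against 5.42 to 6.40 elsewhere (departure -2.28 ± 0.25, adjusted p = 3.19e-05). In the same window of chromosome 7 Trim12c also had the double mutant outermost, but above additivity. Trim12c was chosen for mention after its values were seen. Nxpe3, a neurexophilin domain gene, read 5.26 to 5.92 in double mutants and 6.85 to 7.51 elsewhere (departure -1.81 ± 0.17, adjusted p = 3.21e-06). Of 19 genes listed as candidates for variation between mouse strains 3 lay above additivity (15.8%) and 4 below (21.1%), Trim12a and Cd59a among those below. The shares over all genes were 1.78% and 0.852%. Which segments of C57BL/6, BALB/c or 129 each mutant animal carried is not given, and whether inherited differences between the animals of the double and single mutants contribute was not tested. The 30 nearest annotated genes around Vhl had 0 calls. Those around Pbrm1 had 2 above (6.67%, beside 1.78% of all genes), Tnnc1 and Itih1.

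The other main kind was a single-mutant change that was not called in the same direction in the double mutant. It was a fall below wild type in 130 genes and a rise in 57. Pbrm1 mutants alone showed it in 78 of the 130 and 27 of the 57, Vhl mutants alone in 36 and 21, and both in 16 and 9. With the arrays averaged per pair the interaction stayed called in 4 of the 130 and 7 of the 57. Aldh1a1, a retinal dehydrogenase, read 7.47, 7.73, 6.95 and 6.93 in double mutants, 7.25, 7.46, 7.53 and 7.5 in Vhl mutants, 9.11, 9.06, 8.74 and 8.69 in Pbrm1 mutants, against 6.70, 6.99, 6.56 and 6.92 in wild type. Pbrm1 mutants stood apart above, and double mutant replicates 3 and 4 overlapped wild type. Aldh1a1 was higher by 2.11 in Pbrm1 mutants than in wild type (adjusted p = 4.86e-08). The change between double and Vhl mutants was -0.18 (adjusted p = 0.607). The departure was -2.28 ± 0.22 (adjusted p = 5.84e-06). Akr1c18, which inactivates progesterone, also rose in Pbrm1 mutants, with 7.33, 7.38, 8.86 and 9.01 in double mutants, 7.60 to 8.17 in Vhl mutants, 10.17 to 10.69 in Pbrm1 mutants, against 7.72 to 8.40 in wild type. Its double mutant arrays split by pair, and its departure was -2.06 ± 0.43 (adjusted p = 0.012; 0.186 with the arrays averaged per pair). Tmem45b, listed with principal cell genes, rose by 0.63 in Pbrm1 mutants (adjusted p = 0.000348), with a double mutant change of -0.22 (adjusted p = 0.164) and a departure of -1.0 ± 0.13 (adjusted p = 0.000251). With the arrays averaged per pair Tmem45b was not called (adjusted p = 0.0507).

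Falls in Pbrm1 mutants that double mutants lacked included matrix, complement and HIF-responsive genes. Fn1, encoding fibronectin, read 8.86, 8.77, 8.49 and 8.85 in double mutants, 8.82, 8.70, 8.48 and 8.45 in Vhl mutants, 6.91, 6.75, 7.27 and 6.86 in Pbrm1 mutants, against 7.62, 7.79, 7.89 and 7.96 in wild type. The double and Vhl mutants overlapped each other above wild type, and the Pbrm1 mutants lay below it. The change in Fn1 was -0.87 between Pbrm1 mutants and wild type (adjusted p = 0.000105) and 0.13 between double and Vhl mutants (adjusted p = 0.588). The departure was 1.0 ± 0.16 (adjusted p = 0.00197). C7, the seventh complement component, followed the same order with a departure of 1.21 ± 0.23 (adjusted p = 0.00574). Stc1, the secreted glycoprotein stanniocalcin-1 and a HIF target, averaged 7.86 ± 0.03 in double mutants, 7.55 ± 0.27 in Vhl mutants, 5.27 ± 0.27 in Pbrm1 mutants, against 5.93 ± 0.12 in wild type (SD, n = 4 each). Its departure was 0.98 ± 0.19 (adjusted p = 0.00628). The uncharacterised 3110045C21Rik fell by 1.72 in Pbrm1 mutants (adjusted p = 2.08e-07) and by 0.64 in Vhl mutants (adjusted p = 0.0133). In double mutants its change was -0.41 (adjusted p = 0.0714), and its departure was 1.95 ± 0.20 (adjusted p = 1.35e-05). With the arrays averaged per pair 3110045C21Rik stayed called (adjusted p = 0.00304). Fn1, C7 and Stc1 did not (adjusted p = 0.0614, 0.134 and 0.0846).

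Cyp4a12a, an androgen-dependent arachidonic acid hydroxylase of the male kidney, read 7.02, 6.92, 7.53 and 7.27 in double mutants, 3.34, 4.45, 4.0 and 5.0 in Vhl mutants, 7.63, 7.84, 7.91 and 7.89 in Pbrm1 mutants, against 6.80, 6.85, 6.56 and 5.94 in wild type. It fell in Vhl mutants and rose in Pbrm1 mutants. The double mutant arrays lay between Pbrm1 mutants and wild type without overlap, but their change of 0.65 against wild type did not pass the test (adjusted p = 0.132). The departure was 1.71 ± 0.37 (adjusted p = 0.0161), with the opposite sign on the linear scale. Slitrk6, a neuronal transmembrane protein, read 6.83 to 6.94 in double mutants, 5.36 to 6.05 in Vhl mutants, 6.26 to 6.71 in Pbrm1 mutants, against 6.66 to 7.09 in wild type (departure 1.41 ± 0.21, adjusted p = 0.000614). Rsad2, the interferon-induced antiviral protein viperin, rose in Vhl mutants alone by 0.68 (adjusted p = 2.62e-05), with a double mutant change of -0.05 (adjusted p = 0.777) and a departure of -0.63 ± 0.11 (adjusted p = 0.00364). It was the 1 called gene of 22 in the interferon response list. Ifi44l, outside that list, rose in double mutants and was called in neither single mutant. It read 3.97 to 5.58 in double mutants and at most 2.91 elsewhere, which is near background (departure 2.32 ± 0.33, adjusted p = 0.000422). With the arrays averaged per pair Cyp4a12a, Slitrk6 and Rsad2 were not called (adjusted p = 0.0671, 0.0614 and 0.149).

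Immediate early genes respond within minutes to stress and growth signals. Ier3, Jun and Gadd45g of the immediate early list were called down in both single mutants and not in double mutants. Among all 22180 genes tested, 16 genes above additivity had this pattern. The list was written with earlier results of these data known, so its members are named as examples. In Gadd45g the double mutant change was -0.63 (adjusted p = 0.111). It was -0.87 in Pbrm1 mutants (adjusted p = 0.0469) and -1.33 in Vhl mutants (adjusted p = 0.0028). Ier3 read 8.45, 8.37, 8.35 and 8.48 in double mutants, 7.82, 7.90, 7.51 and 7.45 in Vhl mutants, 7.30, 7.12, 8.02 and 8.0 in Pbrm1 mutants, against 8.58, 8.48, 8.18 and 8.26 in wild type. Double mutants and wild type overlapped, and both single mutants lay below them. The departure of Ier3 was 1.51 ± 0.23 (adjusted p = 0.000825). Jun, a subunit of the AP-1 factor, had 1.38 ± 0.22 (adjusted p = 0.00143), and Gadd45g, a stress-induced regulator of kinase signalling, 1.57 ± 0.34 (adjusted p = 0.0164). Of 22 genes of this list 5 lay above additivity and 0 below (median 0.40). With the arrays averaged per pair the count was 0. In Jun and Gadd45g wild-type replicates 1 and 2 were the highest arrays, at 8.48 and 8.48 and at 8.87 and 9.20, and replicates 3 and 4 read 7.74 and 7.68 and 7.71 and 7.82. Without wild-type replicates 1 and 2 the list had 3 above, and without double mutant replicates 1 and 2 it had 2.

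A shift shared by all mutants against wild type produced few departures, and in these the double mutant did not need to differ from the single mutants. Hspa1a, the inducible 70-kDa heat shock protein, read 7.65, 7.53, 6.63 and 6.80 in double mutants, 6.13, 6.13, 6.42 and 6.59 in Vhl mutants, 7.43, 7.38, 6.27 and 5.92 in Pbrm1 mutants, against 9.80, 10.02, 7.51 and 7.38 in wild type. Wild-type replicates 1 and 2 lay far above the rest. The departure was 2.75 ± 0.68 (adjusted p = 0.0338), a call that ended when any of 9 arrays was left out singly, and it was 1.53 without wild-type replicates 1 and 2 (adjusted p = 0.117). Of 14 heat shock genes 4 lay above and 0 below, and 0 did without those 2 arrays, without double mutant replicates 1 and 2, or with the arrays averaged per pair. Ces1g, a carboxylesterase, read 5.54 to 6.14 in double mutants, 5.2 to 6.39 in Vhl mutants, 6.21 to 6.48 in Pbrm1 mutants, against 7.4 to 8.53 in wild type. All mutant arrays lay below wild type, and Vhl mutants overlapped both other mutant groups. The departure was 1.6 ± 0.36 (adjusted p = 0.0205, and 0.222 with the arrays averaged per pair). Tnnc1, the slow troponin C and a neighbour of Pbrm1, also lay below wild type in all mutants, at 6.10 to 6.36 in double mutants, 6.28 to 6.65 in Vhl mutants, 6.08 to 6.46 in Pbrm1 mutants, against 7.14 to 7.93 in wild type (departure 0.85 ± 0.21, adjusted p = 0.0344). That call ended when any of 7 arrays was left out singly.

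On the side below additivity, all 3 mutant groups stood above wild type in Depp1, a FoxO target, at 6.29 to 6.47 in double mutants, 6.61 to 7.08 in Vhl mutants, 6.6 to 6.63 in Pbrm1 mutants, against 5.59 to 6.04 in wild type (departure -1.15 ± 0.15, adjusted p = 0.000182). Cx3cr1, the fractalkine receptor of macrophages, also stood above wild type in all 3 mutant groups, with a departure of -0.63 ± 0.13 (adjusted p = 0.011, and 0.187 with the arrays averaged per pair). It is the 1 of 23 macrophage genes below additivity. Itgam and Cd53 lay above, and both of those calls ended when any of several arrays was left out singly.

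Azgp1, encoding zinc-alpha-2-glycoprotein, a lipid-mobilising secreted protein, had the largest departure above additivity and met the same criterion, yet its levels were of another kind. It read 8.44, 8.45, 8.12 and 8.02 in double mutants, 8.23, 8.32, 8.84 and 8.62 in Vhl mutants, 4.40, 5.24, 5.28 and 5.09 in Pbrm1 mutants, against 9.58, 9.53, 9.20 and 9.07 in wild type. Pbrm1 mutants stood alone, far below the other groups. The change in Azgp1 was -4.34 between Pbrm1 mutants and wild type (20.3-fold lower, adjusted p = 7.79e-12). Between double and Vhl mutants it was -0.26 (adjusted p = 0.481). The departure was 4.09 ± 0.25 (17-fold, adjusted p = 5.99e-09).

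Among the other patterns, a Pbrm1 change persisted in the double mutant at reduced size. Aldh1a7, a paralog of Aldh1a1, rose by 2.27 in Pbrm1 mutants (adjusted p = 2e-06) and by 0.85 in double mutants (adjusted p = 0.0135), with a departure of -2.18 ± 0.31 (adjusted p = 0.000492). The paralogs may share probe sequence. Hmgcs1, a cholesterol synthesis enzyme, read 11.20, 11.16, 10.86 and 10.83 in double mutants, 11.12, 11.23, 11.31 and 11.35 in Vhl mutants, 10.20, 10.24, 10.24 and 10.22 in Pbrm1 mutants, against 11.25, 11.25, 11.31 and 11.27 in wild type. It fell in Pbrm1 mutants by 1.04 and in double mutants by 0.26, and its departure was 0.79 ± 0.11 (adjusted p = 0.000251). Cholesterol synthesis genes as a list had 1 above and 1 below of 18. The gene below is Insig1, a brake on that pathway, in which no simple comparison was called (departure -0.67 ± 0.16, adjusted p = 0.0265); that call ended without Pbrm1 mutant replicate 3 or 4. Most of the remaining patterns, 64 of 87 above and 23 of 32 below, were genes that differed between the double mutant and 1 or both single mutants without any call against wild type. Tnfrsf12a, the receptor of the cytokine TWEAK, is an example, at 6.92 to 7.73 in double mutants, 6.41 to 6.81 in Vhl mutants, 6.23 to 6.6 in Pbrm1 mutants, against 6.73 to 7.15 in wild type (departure 1.09 ± 0.21, adjusted p = 0.00695). With the arrays averaged per pair Aldh1a7, Hmgcs1, Insig1 and Tnfrsf12a were not called (adjusted p = 0.0617, 0.0614, 0.237 and 0.125).

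The change that went with each deletion can also be set side by side in both contexts, which share no arrays. With the other gene intact it is a single mutant against wild type, where Cre and strain label differ too. Pbrm1 deletion was called in 1408 genes with Vhl deleted and in 895 with Vhl intact. It was called in both with the same sign in 252 genes, 17.9% of the first set and 28.2% of the second, and with opposite signs in 23. Of all genes, 6.35% were called with Vhl deleted and 4.04% with Vhl intact. Called or not with Vhl deleted, 648 of the 895 (72.4%) had the same sign there. Vhl deletion was called in 2260 genes with Pbrm1 deleted (10.2% of all) and in 851 with Pbrm1 intact (3.84%). In both it was called with the same sign in 410 (18.1% and 48.2%) and with opposite signs in 17. Called or not with Pbrm1 deleted, 681 of the 851 (80%) had the same sign there. The share of equal signs was not computed over all genes. Over all genes the changes in both contexts had a Spearman correlation of 0.081 for Pbrm1 and 0.163 for Vhl deletion. The Pearson correlations were 0.225 and 0.341. Of the genes called with the other gene intact, the interaction was called in 191 (21.3%) for Pbrm1 and 165 (19.4%) for Vhl, against 2.63% of all genes; these contrasts share the wild-type arrays with the interaction, so nothing further is read from those shares.

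**Figure D5:**
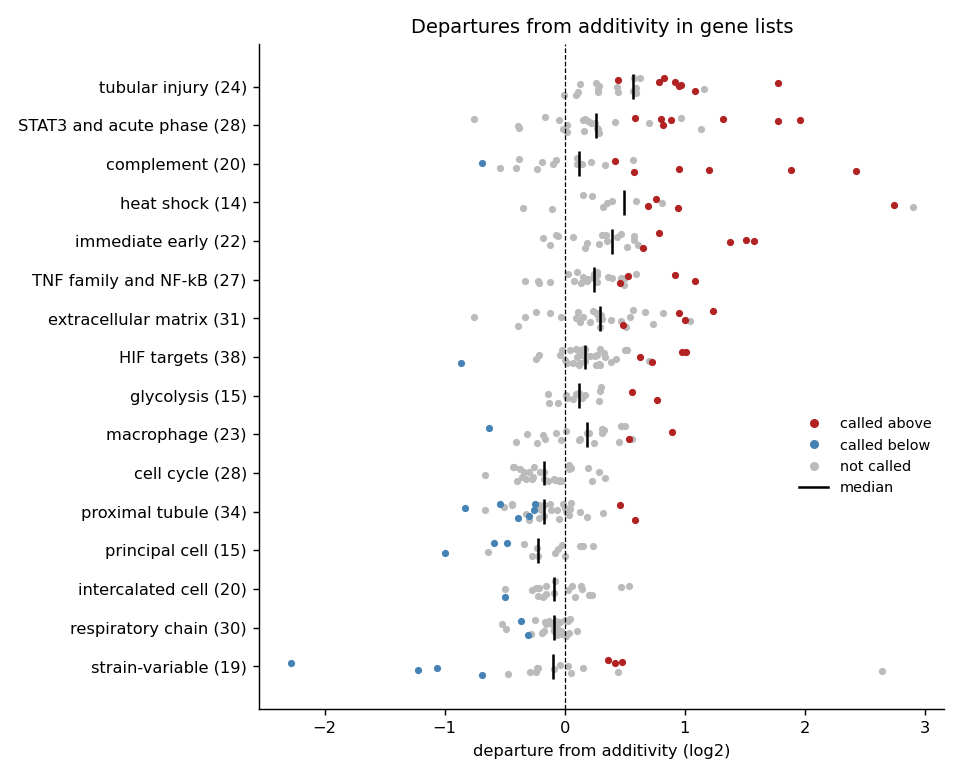
Departure from additivity (horizontal axis, log2) of each tested gene in 16 gene lists, with the number of genes in brackets and a black bar at the median. Red and blue points were called above and below additivity, and the medians run from 0.57 for tubular injury genes to -0.23 for principal cell genes.

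Of 14 sex-dependent kidney genes 2 lay above and 3 below (14.3% and 21.4%, median 0.003), Cyp4a12a and Cyp2j13 above and Akr1c18, Akr1c21 and Kap below. Kap was chosen for mention after its values were seen. With the arrays averaged per pair that list had 0 calls. Without wild-type replicates 1 and 2 it had 0 above and 1 below, and without double mutant replicates 3 and 4 it had 0 above and 3 below. The lists of 28 cell cycle, 18 lymphocyte, 17 endothelial, 12 adipose, 10 podocyte, 15 antigen presentation and 23 SWI/SNF genes had 0 calls in either direction by limma, with medians from -0.17 for cell cycle to 0.14 for SWI/SNF genes. TNF family and NF-kB genes had 4 of 27 above (14.8%) and 0 below (median 0.25). The count above was 1 with the arrays averaged per pair, and 2 without wild-type replicates 1 and 2 or without either pair of double mutant arrays. Fatty acid oxidation had 0 above and 1 below of 29. The lists overlap in members, Lcn2 and Vcam1 among them, and were written with earlier results of these data known. Their counts are descriptions beside the 1.78% and 0.852% of all genes.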

How the data were processed

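RNA from kidney cortex of 16 samples was hybridised to Affymetrix arrays. The authors deposited log2 values. The submitters' processing notes name RMA and, as software, Affymetrix Expression Console in version 1.4. The values were used without further normalization. Of 41345 probe sets, 23521 carried 1 gene symbol and gave 22180 genes.

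All 4 groups were fitted together with limma 3.58.1 in R 4.3.3 (lmFit, the description number as a random block with correlation 0.0838, and eBayes with a variance trend). The interaction and 5 simple comparisons were contrasts of that fit, with Benjamini-Hochberg adjustment over all genes and a threshold of 0.05. The adjusted p-values in the text are from this limma fit unless another setting is named, and ± after a departure is its standard error. Fitted changes differ slightly from differences of group means because of the block.

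Named genes were the 12 largest calls in each direction, the 5 largest of each kind in each direction, up to 4 called members of each list by size, and Vhl and Pbrm1; genes dim in all groups were left out of the first. Members and lists were chosen with earlier results of these data known. The code was tested on simulated data. The number of arrays limits precision. Alternatives covered scaling, filters, the block, the variance model, thresholds, averaging and left-out arrays. Samples with the same replicate number did not deviate together across groups, with correlations of -0.074 to 0.059.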

Additional observations from a re-analysis of the deposited data

Results flagged for a closer look

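The change that went with Pbrm1 deletion was more positive in 394 genes and more negative in 189 with Vhl deleted than with Vhl intact, by the interaction test itself.

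Single arrays stood apart from the other 3 of their group in 24 of 428 groups of named genes, where chance gives about 1 in 20. In double mutants these were replicate 4 for Akr1c21 (10.735) and Slc13a1 (12.307), replicate 3 for Cfi (5.509) and Edn1 (5.508), and replicate 1 for Cx3cl1 (8.411). In Vhl mutants they were replicate 1 for Cd59a (8.273), Cox5a (9.765) and Gm5475 (5.978), replicate 2 for Rps13 (5.552), replicate 3 for Hc (3.686), and replicate 4 for Ifi44l (2.488) and S100a6 (5.931). In Pbrm1 mutants they were replicate 1 for Itih1 (5.769), replicate 3 for S100g (10.786) and Slc13a1 (11.563), and replicate 4 for Mpp4 (4.027). In wild type they were replicate 1 for Stc1 (6.107) and Tnnc1 (7.932), replicate 2 for Cd59a (8.47), Cx3cr1 (5.959) and Slitrk6 (7.094), replicate 3 for Fabp7 (8.201) and Trim12a (5.417), and replicate 4 for Tnfrsf1a (7.265).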

How the results depend on the processing

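The count of genes that departed from additivity, 583 (394 above, 189 below), moved by more than 1.5 times under several settings. It was 884 (600 and 284) with no random block, 337 (219 and 118) without the variance trend, 340 (217 and 123) with a 1.5-fold minimum, 186 (122 and 64) at an adjusted p under 0.01 and 1083 (731 and 352) at one under 0.1. Averaging arrays by description number gave 99 (62 and 37), and averaging by pair gave 51 (31 and 20). Leaving out the 3 arrays with the highest adipose markers gave 244 (155 and 89). The last 2 settings were chosen after seeing the data, as was moving double mutant replicate 3 to the block of replicate 4 (525). Fewer values enter the averaged fits; the other causes were not tested.

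Without single arrays the count ran from 422 to 692 (263 to 470 above, 134 to 222 below). Without the arrays of a number or pair it ran from 236 to 988 (126 to 687 above, 108 to 301 below): in wild type, 290 without replicates 1 and 2 but 988 when 3 and 4 were dropped, then 236 without double mutant replicates 1, 2 and 3, and 300 without Pbrm1 mutant replicates 3 and 4. No called gene changed sign in these, and 1 did when probe sets of a gene were averaged.

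With the replicate number as a block the count was 839 (577 and 262), but the numbers do not pair the samples. The uncalled departure of Pbrm1 was 0.0017 with this replicate block, with no random block, with replicate 3 moved and with pairs averaged, 0.0424 with centred arrays, and -0.1069 to 0.0843 with arrays left out. That of Vhl was -0.0571 after quantile normalization and -0.0838 to 0.0865 with arrays left out.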

Other observations

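The clock genes Dbp and Arntl differed between the array pairs within groups. Dbp read 7.76, 7.91, 9.16 and 8.97 in double mutants, 7.21, 7.13, 9.73 and 9.73 in Vhl mutants, 8.99, 9.01, 8.03 and 8.10 in Pbrm1 mutants, against 9.41, 9.33, 9.22 and 9.53 in wild type. Its departure was 0.86 ± 0.69 (adjusted p = 0.597). Havcr1, the injury marker KIM-1, averaged 9.04 ± 0.45 in double mutants, 6.28 ± 0.59 in Vhl mutants, 5.96 ± 1.43 in Pbrm1 mutants, against 4.34 ± 0.45 in wild type (SD, n = 4 each), and its departure of 1.16 ± 0.67 did not pass the test (adjusted p = 0.423). These genes were chosen after their values were seen.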
